A study of Mus musculus with 56 samples.

Results

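Cholesterol and fatty acid synthesis genes are the subject here: 31 genes chosen by name for their roles in making sterols, isoprenoids and fatty acids or in regulating that synthesis, with earlier results of these data known. They were followed in 2 count tables of mouse CD4 T cells, experiment 1 (19791 gene symbols) and experiment 2 (24421 symbols). Of the 31 genes, 16 are grouped here as sterol steps, 5 regulate the pathway or carry sterol, and 10 catalyse steps of fatty acid synthesis. The 16 include Ggps1, which makes the isoprenoid geranylgeranyl diphosphate rather than a sterol intermediate. In experiment 1, 29 of the 31 had at least 10 counts and 27 passed the filter on low counts. In experiment 2, 30 had at least 10 counts and 29 passed. Counts of genes called below run over those 27 or 29, and the filter depends on the level a gene reaches in its highest groups.

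The study asked how the concentration of cells in a culture bears on early memory differentiation of CD4 T cells. All cells were C57BL/6 spleen CD4 T cells without a transgene named in the labels. Activated cells received beads with antibodies to CD3 and CD28 in complete RPMI without added cytokines. Experiment 1 holds 6 groups of 3 libraries. Its unactivated groups are naive cells (CD44 negative, CD62L positive) and mature cells (CD44 positive, CD62L negative). Its activated groups, all started at 250000 cells per ml, were sorted as CD62L positive or CD62L negative at 48 or 72 h. Experiment 2 holds 38 libraries in 13 groups. Apart from naive cells, it has cultures seeded at 1000000 cells per ml (here high) or 62500 cells per ml (here low), sorted as CD4 positive at 18, 30, 48 or 72 h. It also has cultures seeded at 250000 cells per ml and sorted at 48 or 72 h as CD44 positive with or without CD62L. Groups have 3 libraries each, but low cultures at 72 h have 2. The sources used here do not give the ages of the mice or say whether libraries of a group came from separate mice or cultures. The p-values therefore measure only the spread between these libraries, which may be technical.

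Cholesterol is built from acetyl-CoA through the mevalonate pathway, which also yields isoprenoids, and then through squalene and lanosterol. Fatty acids start from the same acetyl-CoA, which ATP citrate lyase makes from citrate, and are extended and desaturated in later steps. Transcription factors of the SREBP family, made from Srebf1 and Srebf2, are released from the endoplasmic reticulum when membrane sterol is low and switch on genes of both branches. SCAP escorts them and INSIG proteins hold them back. Activated T cells are known to raise this synthesis as they grow and divide.

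The 150 bases upstream of the annotated start are shown for Hmgcs1, Mvd, Nsdhl, Cyp51 and Insig1, because these sterol genes differed between the groups below and were matched in the RefSeq promoter table. That table, of build GRCm38.p6, holds windows of 250 bases before to 50 bases after a start for 24 of the 31 genes. Fdft1, Stard4, Fads1, Scd2, Sqle, Fdps and Scd1 were not matched. Each sequence runs 5′ to 3′ on the strand of its gene, with capitals for matches to 4 motifs on either strand: TCACNCCAC (a sterol regulatory element), CACGTG (an E-box), CCAAT (the NF-Y motif, ATTGG on the other strand) and GGGCGG (the Sp1 motif, CCGCCC on the other strand). The intervals on the plus strand are chr13:119690201-119690350 for Hmgcs1, chrX:72918371-72918520 for Nsdhl and chr5:28071262-28071411 for Insig1. Those on the minus strand are chr8:122443423-122443572 for Mvd and chr5:4104698-4104847 for Cyp51.
Hmgcs1: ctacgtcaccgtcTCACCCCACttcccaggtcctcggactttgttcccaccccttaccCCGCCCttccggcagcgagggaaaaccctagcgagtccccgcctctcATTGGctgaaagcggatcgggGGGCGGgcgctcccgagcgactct
Mvd: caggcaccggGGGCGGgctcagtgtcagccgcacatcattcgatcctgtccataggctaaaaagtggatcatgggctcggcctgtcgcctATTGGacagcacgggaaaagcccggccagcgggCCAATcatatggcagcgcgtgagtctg
Nsdhl: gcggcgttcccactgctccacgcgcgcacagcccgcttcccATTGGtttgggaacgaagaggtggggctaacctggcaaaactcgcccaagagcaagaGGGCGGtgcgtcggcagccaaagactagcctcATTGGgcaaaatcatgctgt
Cyp51: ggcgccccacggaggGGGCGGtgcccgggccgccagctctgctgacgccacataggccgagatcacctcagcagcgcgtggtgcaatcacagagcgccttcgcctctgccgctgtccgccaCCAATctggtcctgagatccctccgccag
Insig1: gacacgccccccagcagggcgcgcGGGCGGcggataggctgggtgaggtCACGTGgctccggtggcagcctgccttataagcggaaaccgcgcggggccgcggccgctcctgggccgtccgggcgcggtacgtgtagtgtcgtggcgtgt
The TCACNCCAC motif was present in the Hmgcs1 window, 137 bases before the start, and for no other of the 24 genes; over all 27025 genes with a window, 1.44% held it. Some genes have several windows, and a match in any of them was counted. CCAAT was present for 19 of the 24 genes (79.2%) against 41.1% of all genes, and GGGCGG for 18 of the 24 (75.0%) against 38.2%. CACGTG was present for 5 of the 24 (20.8%; Dhcr7, Elovl5, Hsd17b7, Insig1 and Scap) against 8.09%. The motifs do not overlap one another within these sequences. These are matches of letters and no measurement of binding. Only the pattern TCACNCCAC was searched, so a sterol regulatory element of another sequence would be neither marked nor counted.

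Library totals ran from 58750 to 1738555 counts in experiment 1, where the lowest is naive replicate 1, and from 587118 to 3359875 in experiment 2. All values below are counts scaled to 1000000 per library (CPM) after correction by the trimmed mean of M-values (TMM). Genes were called at an adjusted p under 0.05 by edgeR's quasi-likelihood test with Benjamini-Hochberg adjustment over all genes tested. Unless DESeq2 is named, every adjusted p below is of that kind. The tables count some symbols differently: Hmgcs1 and Fdps had 0 counts in all 18 libraries of experiment 1 and 12727 and 13006 counts in experiment 2. Fdft1 had 1140 counts in experiment 1 and 9 in experiment 2, and Fasn 5503 and 198. Levels were therefore compared only within a table. No source used here gives the strand setting of the counting, and the 3′ ends of Fdft1, Lss, Cyp51, Srebf1 and Elovl1 overlap a gene on the opposite strand, so their counts are less certain. Idi1 reached 7.24 CPM at most in experiment 2 and 10.1 CPM in experiment 1, with 0 counts in every naive and mature library, and was not tested. All 7 T-cell markers were detected in every group. In experiment 2 the summed level of 6 B-cell markers was at most 14.9 CPM and that of 7 myeloid markers at most 39.7 CPM. Among these, Ms4a1, Pax5 and Itgax had 0 counts over all its libraries. Within experiment 1, naive libraries held 838 to 1483 CPM of B-cell markers and 528 to 1061 CPM of myeloid markers. Its activated libraries held at most 19.3 and 72.2 CPM. The naive libraries also held 77.6 to 250 CPM of 2 CD8 markers, 31.0 to 90.2 CPM of 3 NK markers and 162 to 435 CPM of 4 red cell and platelet markers. Those last 4 were at 0 in every library of experiment 2, as were the NK markers Ncr1 and Klrb1c. Whether that table counts these symbols was not tested, so marker sums do not compare purity between the tables.

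Genes of both branches were higher at 18 h of activation than in naive cells in experiment 2. Neither experiment holds cells cultured without activation, so activation and culture cannot be told apart. Relative to naive cells, 16 of the 29 genes were higher and 2 lower at the mean of both concentrations, where 65.9% of all genes tested were called and 32.3% were called higher. The members' median difference was 0.84 (log2) and that of all genes 0.00. Of the 14 sterol-step genes 7 were higher and 1 lower, of the 5 regulators 2 were higher and 1 lower, and of the 10 fatty acid genes 7 were higher and none lower. In bulk samples a change in the share of cells that express a gene and a change in RNA per cell cannot be told apart, here and below.

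Sqle encodes squalene epoxidase, which adds the oxygen needed to close the sterol rings. It was at 2.31, 6.84 and 2.66 CPM in naive cells, at 51.9, 40.0 and 51.7 CPM in the low cultures at 18 h and at 77.3, 45.5 and 75.1 CPM in the high cultures. No activated library overlapped a naive one, and the difference was 3.79 ± 0.30 (log2 ± SE, adjusted p = 4.9e-16). Cyp51, the lanosterol demethylase, went from 3.09, 1.87 and 4.25 CPM in naive cells to 19.6 to 25.5 CPM in low and 27.5 to 41.9 CPM in high cultures, 3.08 ± 0.36 higher (adjusted p = 1.9e-10). Hmgcs1, the synthase that supplies HMG-CoA, had naive levels of 53.2, 37.9 and 33.5 CPM and 18 h levels of 126 to 143 CPM (low) and 166 to 191 CPM (high), a difference of 1.92 ± 0.15 (adjusted p = 2.2e-16). Fdps, which makes farnesyl diphosphate, rose by 1.42 ± 0.15 (adjusted p = 6.5e-12). The mevalonate decarboxylase Mvd was 1 of the 2 genes called lower (-0.71 ± 0.29, adjusted p = 0.034), with naive levels of 24.7, 57.9 and 31.3 CPM. Its 18 h levels, 17.5, 32.7 and 10.7 CPM (low) and 36.3, 17.9 and 25.6 CPM (high), overlapped the naive ones.

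Among the fatty acid genes, Acly, which encodes ATP citrate lyase, rose from 75.6, 49.1 and 49.9 CPM in naive cells by 1.45 ± 0.16 (adjusted p = 1.7e-11). Acaca, which encodes the acetyl-CoA carboxylase of the first committed step, rose from 14.7, 15.6 and 11.7 CPM to 40.9, 48.5 and 48.1 CPM (low) and 38.2, 31.3 and 31.1 CPM (high), by 1.49 ± 0.23 (adjusted p = 2.7e-07). Fasn, the fatty acid synthase, was low in this table, at 0.772, 0 and 2.66 CPM in naive cells and 2.75 to 8.03 CPM at 18 h. Elovl1, an elongase of very long chains, rose by 0.62 ± 0.13 (adjusted p = 4.9e-05). Scd1 and Fads2, desaturases of which Scd1 makes monounsaturated chains, had 0 counts in naive cells and 3 counts or fewer in each 18 h group. Of the regulators, the sterol carrier Stard4 rose by 1.23 ± 0.25 (adjusted p = 3.2e-05) and Scap by 0.55 ± 0.17 (adjusted p = 0.0039), while Srebf1 was called lower (-0.43 ± 0.20, adjusted p = 0.047). With scaling by total counts alone the calls of Mvd (-0.48, adjusted p = 0.12) and Srebf1 (-0.22, adjusted p = 0.33) were lost.

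**Figure D1:**
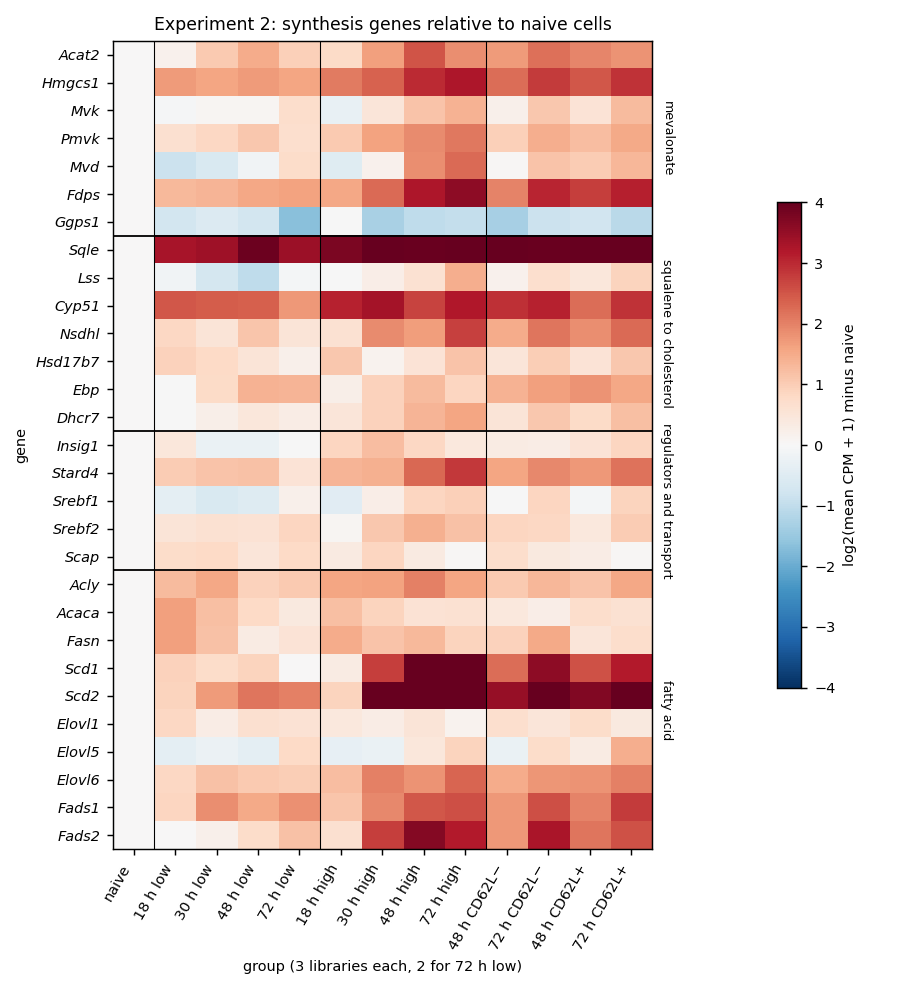
Level of each of the 29 tested genes in every activated group of experiment 2 as log2 of the group's mean CPM + 1 minus that of naive cells, with colours ending at 4 in either direction. Rows follow the roles of the genes, and the high cultures at 72 h have the deepest red for Hmgcs1 and Fdps. Sqle, Scd1 and Scd2 reach the end of the colour scale.

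Experiment 1 compared activated with naive cells at 48 h and from another starting concentration. Against naive cells, the mean of both CD62L sorts was higher for 15 of 27 genes and lower for 3, where 62.1% of all genes were called and 30.3% were called higher. The members' median difference was 0.75 (log2). Cyp51 stood at 31.0, 21.2 and 28.0 CPM in naive cells and at 338, 303 and 285 CPM (CD62L negative) and 315, 305 and 237 CPM (CD62L positive) at 48 h, 3.52 ± 0.26 higher (adjusted p = 3.4e-14). The lanosterol synthase Lss had 0, 8.49 and 49.7 CPM in the naive libraries and 174 to 202 CPM at 48 h (2.70 ± 0.29, adjusted p = 7.2e-10). The thiolase Acat2 rose by 3.30 ± 0.39 (adjusted p = 3.7e-09) and Sqle by 3.14 ± 0.38. Over the 3 naive libraries Cyp51 had 16 counts, Lss 18, Acat2 6 and Sqle 8, so the sizes of these rises are imprecise.

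Scd2, a stearoyl-CoA desaturase, rose from 62.1, 80.6 and 121 CPM to 831 to 915 CPM (3.18 ± 0.18, adjusted p = 1.9e-17), with no overlap. Scd1 moved the other way in this table, from 46.6, 89.1 and 37.3 CPM in naive cells to 11.3 to 31.9 CPM at 48 h (-1.61 ± 0.44). Fasn rose from 248, 289 and 323 CPM to 389 to 631 CPM (0.75 ± 0.16), Elovl6 by 2.19 ± 0.32 (adjusted p = 4.2e-07) and Acly by 1.30 ± 0.20 (adjusted p = 1.1e-06). Among the regulators Stard4 rose by 2.57 ± 0.33 (adjusted p = 2.5e-08). Both SREBP genes fell, Srebf1 by 0.74 ± 0.17 (adjusted p = 0.00023) and Srebf2 by 0.61 ± 0.20. The naive libraries of this table hold the most B-cell and myeloid marker RNA (5 of 6 and 7 of 7 markers detected), and the part of those cells in the levels of Scd1, Srebf1 and Srebf2 was not tested.

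Mature cells, which were not activated, differed from naive cells in 8 of the 27 genes, 4 in each direction, where 16.4% of all genes were called. Cyp51 was at 38.5, 63.2 and 55.5 CPM, 1.02 ± 0.35 above naive (adjusted p = 0.041), and Scd2 at 171, 159 and 166 CPM, 0.76 ± 0.21 above. Higher too were Acly (0.89 ± 0.23, adjusted p = 0.0066) and Ebp, the sterol isomerase (0.69 ± 0.24, adjusted p = 0.047). Lower in mature cells were Fasn at 127, 137 and 163 CPM (-1.06 ± 0.20, adjusted p = 0.00034) and Scd1 at 9.62, 4.08 and 18.0 CPM (-2.39 ± 0.57, adjusted p = 0.0051). So were Srebf2 at 102, 110 and 93.0 CPM (-0.97 ± 0.23, adjusted p = 0.0036) and Srebf1 (-0.63 ± 0.19, adjusted p = 0.02). The naive and mature ranges of the called genes did not overlap, apart from those of Srebf1. How many of all genes lack such an overlap was not counted. Mature libraries held 515 to 573 CPM of B-cell and 200 to 261 CPM of myeloid markers, below the naive libraries, and 144 to 165 CPM of NK markers, above them. The part of those cells in these differences was not tested. Without naive replicate 2 the count was 1, and without mature replicate 3 it was 5; DESeq2 did not call Cyp51 (adjusted p = 0.073) or Ebp (adjusted p = 0.066).

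**Figure D2:**
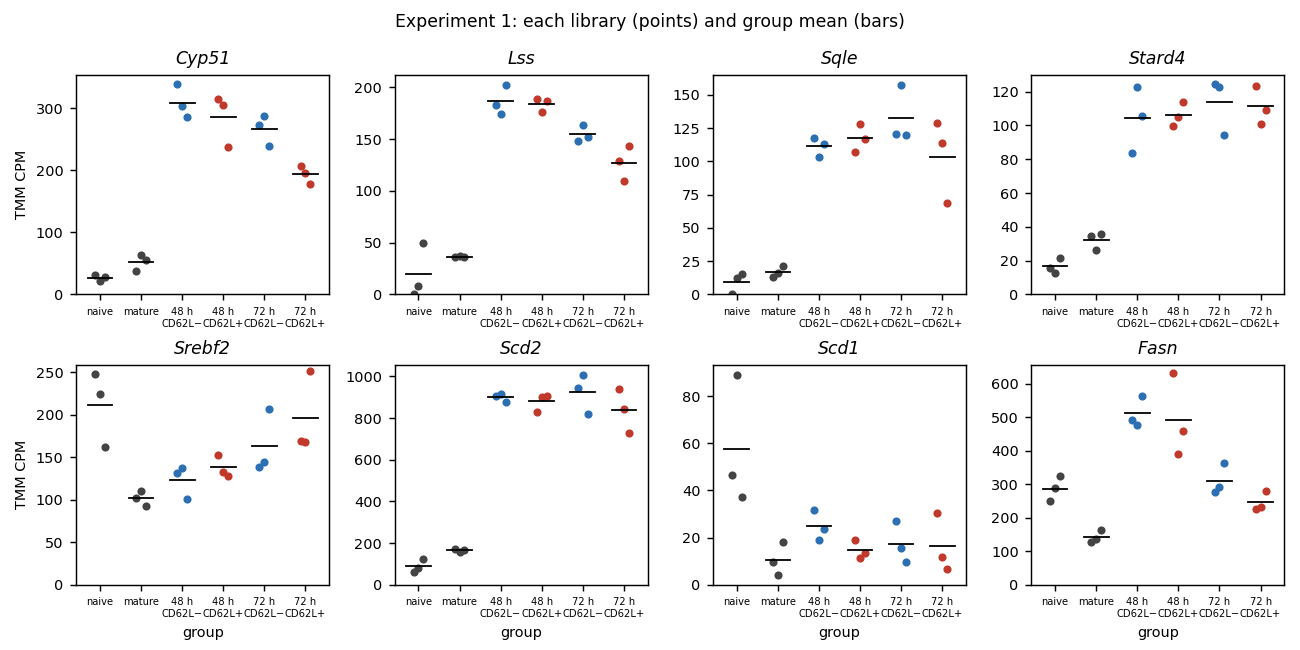
CPM in each library of experiment 1 for Cyp51, Lss, Sqle, Stard4, Srebf2, Scd2, Scd1 and Fasn; each point is 1 library and each bar a group mean. Cyp51, Lss, Sqle, Stard4 and Scd2 are higher in every activated library than in any unactivated one, while Scd1 is highest in the naive libraries and Srebf2 lies between 162 and 248 CPM in naive cells.

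After 18 h further rises were called in high cultures. From 18 to 30 h, 13 of the 29 genes were called higher and 1 lower in high cultures (17.9% of all genes called, 10.5% higher). From 30 to 48 h the counts were again 13 higher and 1 lower (30.1% called, 16.7% higher). From 48 to 72 h 2 were higher and 3 lower, where 23.5% of all genes were called. The first of these steps had 7 calls without the high 18 h replicate 1, 9 without the high 30 h replicate 3 and 7 with the second title number, described below, as a term. The second had 9 without the high 30 h replicate 1 or 2 and 7 when only the compared groups were fitted.

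Scd2 had the largest rise among genes with more than 3 counts in each group, from 45.6, 45.5 and 28.4 CPM at 18 h to 358, 365 and 355 CPM at 30 h in high cultures (3.16 ± 0.20, adjusted p = 1.5e-17). It then reached 388, 603 and 696 CPM at 48 h and 798, 775 and 876 CPM at 72 h. Its relative Scd1 had 1 count over the 3 high libraries at 18 h and 41 at 30 h, a ratio of 21.8 after scaling (exact 95% interval 3.71 to 884, counting error only). Fads2 had 2 and 38 counts, a ratio of 10.1 (2.62 to 86.6). Between 18 and 30 h Nsdhl, a sterol dehydrogenase, rose by 1.29 ± 0.26 (adjusted p = 0.00029), Fdps by 0.73 ± 0.15 (adjusted p = 0.00025) and Ebp by 0.68 ± 0.15 (adjusted p = 0.0011). The SREBP genes rose as well, Srebf2 by 1.01 ± 0.27 (adjusted p = 0.0068) and Srebf1 by 0.73 ± 0.22 (adjusted p = 0.016). The gene called lower was Ggps1, which makes the isoprenoid geranylgeranyl diphosphate (-1.49 ± 0.47).

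Several genes of the mevalonate steps rose between 30 and 48 h in high cultures. Mvd rose by 1.68 ± 0.28 (adjusted p = 1.1e-05), Fdps by 0.96 ± 0.14 (adjusted p = 2.9e-07), Acat2 by 0.91 ± 0.19 (adjusted p = 0.00017) and Hmgcs1 by 0.61 ± 0.14 (adjusted p = 0.00048). With them rose Stard4 (0.93 ± 0.22, adjusted p = 0.0009), Elovl5 (0.74 ± 0.20, adjusted p = 0.0037) and Scd1 (1.42 ± 0.41, adjusted p = 0.0058). Scap was lower (-0.52 ± 0.18, adjusted p = 0.024). From 48 to 72 h Nsdhl (1.05 ± 0.23, adjusted p = 0.00046) and Scd2 (0.53 ± 0.17, adjusted p = 0.016) rose further. Acat2 (-0.68 ± 0.19, adjusted p = 0.008), Acly (-0.44 ± 0.16, adjusted p = 0.039) and Ebp (-0.41 ± 0.15, adjusted p = 0.04) fell. That last step had 1 call without the high 72 h replicate 3, 3 without the high 72 h replicate 1 or the high 48 h replicate 2, and 2 when only the compared groups were fitted. Its 48 h libraries all have second title number 2 and its 72 h libraries number 1, so time and number cannot be told apart there.

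In low cultures fewer genes were called at each step, though the counts of both concentrations were not tested against each other. Between 18 and 30 h the second title number, described below, changes with time in low cultures as well. From 18 to 30 h 4 genes were higher and 1 lower, where 11.7% of all genes were called. Between 30 and 48 h 1 was higher and 1 lower (9.28% of all genes), and between 48 and 72 h 3 were higher and none lower (25.8% of all genes). Hmgcs1 in low cultures was at 126, 143 and 143 CPM at 18 h, 128, 129 and 125 CPM at 30 h, 133, 149 and 130 CPM at 48 h and 132 and 122 CPM at 72 h. The 18 h range overlapped that of each later time, while the 30 h libraries all lay below the 48 h ones. The early rises in low cultures were Scd2 (0.89 ± 0.22, adjusted p = 0.0042) and Fads1, a fatty acid desaturase (1.01 ± 0.26, adjusted p = 0.0057). Ebp (0.80 ± 0.16, adjusted p = 0.00031) and Acat2 (0.90 ± 0.25, adjusted p = 0.011) rose too, and Elovl1 fell (-0.51 ± 0.15, adjusted p = 0.016). From 30 to 48 h Ebp rose (0.61 ± 0.15, adjusted p = 0.0037) and Acly fell (-0.65 ± 0.16, adjusted p = 0.0044). From 48 to 72 h Elovl5, an elongase of polyunsaturated chains (1.19 ± 0.22, adjusted p = 4.5e-05), Srebf1 (0.72 ± 0.24, adjusted p = 0.021) and Mvd (0.88 ± 0.32, adjusted p = 0.041) rose. Without the low 18 h replicate 1 or 2 the first step had 3 calls, and without the low 48 h replicate 2 or 3 or the low 72 h replicate 1 the last had 1.

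**Figure D3:**
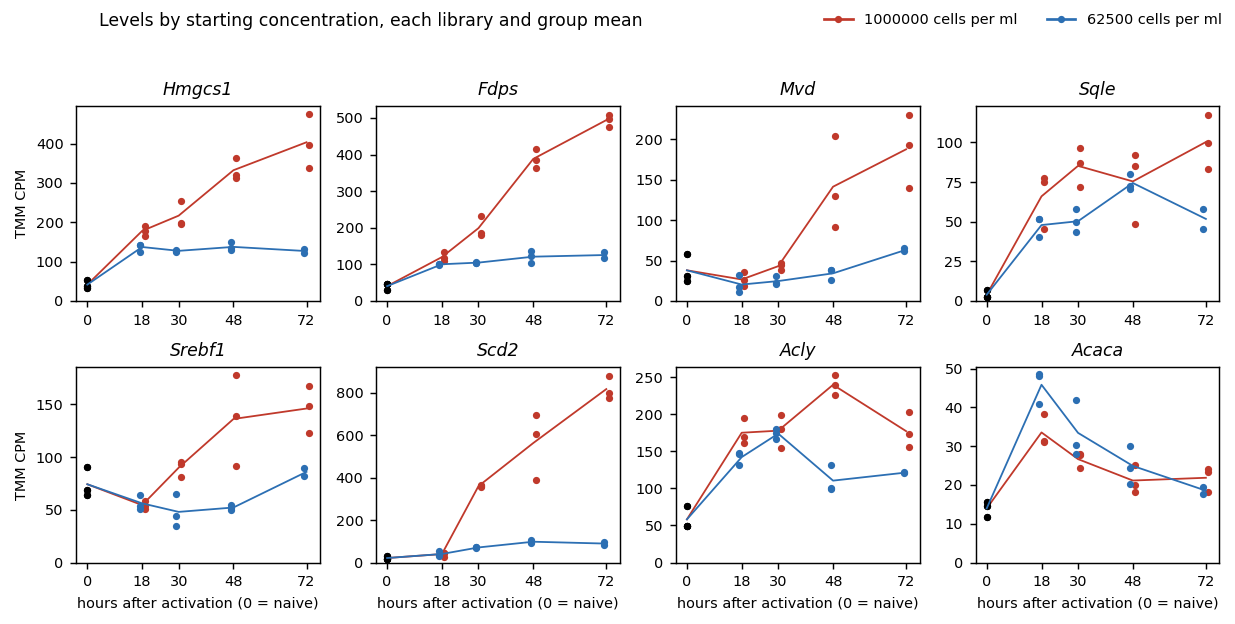
CPM against hours after activation for Hmgcs1, Fdps, Mvd, Sqle, Srebf1, Scd2, Acly and Acaca in experiment 2; points are libraries, lines join group means, red is 1000000 cells per ml, blue 62500 cells per ml and black naive cells. For Hmgcs1, Fdps and Scd2 the red line climbs from 18 to 72 h while the blue line stays within 99.4 to 149 CPM for Hmgcs1 and Fdps.

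The direct comparison of the concentrations, 16-fold apart, gave 0 of 29 genes called at 18 h by edgeR (1.87% of all genes were called), with 4 at an unadjusted p under 0.05. At 30 h 13 were higher in high cultures and 0 lower (8.56% of all genes called, 4.63% higher). At 48 h 19 were higher and 0 lower (25.9%, 13.9% higher), and at 72 h 18 were higher and 3 lower (26.5%, 13.0% higher). At the mean of the 4 times 20 were higher and 2 lower (20.5%, 10.5% higher), with a median difference of 0.80 (log2) against 0.01 over all genes. DESeq2 also called 0 genes at 18 h. By ranges, every high library lay above every low library for 8 of the 29 genes at 18 h (11.4% of all genes), 16 at 30 h (14.2%), 17 at 48 h (19.0%) and 21 at 72 h (27.0%). Every high library lay below every low one for 4 genes at 18 h (9.35% of all genes), 1 at 30 h (14.0%), 0 at 48 h (16.3%) and 3 at 72 h (28.1%). Without the low 72 h replicate 1, which leaves 1 low library, 12 genes were called at 72 h. A marker of CD8 T cells moved with the concentration as well. The summed level of Cd8a and Cd8b1 was 68.0 to 96.2 CPM in high and 47.3 to 62.8 CPM in low cultures at 18 h and 37.5 to 63.5 against 30.0 to 35.4 CPM at 30 h. It was 21.9 to 32.3 against 13.2 to 22.4 CPM at 48 h and 31.8 to 37.9 against 14.2 to 15.6 CPM at 72 h. Naive cells had 33.9 to 37.2 CPM, and Cd8a was at 0 or at most 1.12 CPM in every library of experiment 2, so the sum is almost all Cd8b1. The part of CD8 cells in the concentration differences was not tested.

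Sterol-step genes were higher in high cultures in 8 of 14 cases at 30 h, 8 at 48 h and 10 at 72 h, with Ebp lower at 72 h. At 48 h 6 of the 7 tested mevalonate-step genes were called and 2 of the 7 squalene-to-cholesterol genes. Hmgcs1 in high cultures was at 166, 177 and 191 CPM at 18 h, 199, 255 and 197 CPM at 30 h, 364, 313 and 320 CPM at 48 h and 397, 474 and 338 CPM at 72 h. Against the low cultures these were differences of 0.38 ± 0.15 (adjusted p = 0.25), 0.77 ± 0.14 (0.00019), 1.27 ± 0.14 (5.4e-10) and 1.67 ± 0.17 (4.3e-11). High and low libraries of Hmgcs1 did not overlap at any of the 4 times, 18 h included.

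Fdps stood at 102, 99.4 and 99.9 CPM in low and 116, 134 and 109 CPM in high cultures at 18 h, and at 107, 103 and 104 against 185, 231 and 180 CPM at 30 h. The later levels were 103, 122 and 138 against 386, 414 and 364 CPM at 48 h, and 133 and 119 against 497, 509 and 476 CPM at 72 h. The differences were 0.26 ± 0.16 (adjusted p = 0.59), 0.93 ± 0.14 (1e-05), 1.68 ± 0.14 (1.8e-13) and 1.98 ± 0.17 (3.7e-13), or 3.94-fold in mean CPM at 72 h. A protein-coding gene model on the same strand overlaps the last 1000 bases of Fdps, so its reads could be shared. Mvd was at 38.6, 25.9 and 38.2 CPM in low and 204, 129 and 91.0 CPM in high cultures at 48 h (2.02 ± 0.29, adjusted p = 9.7e-07) and at 61.3 and 65.5 against 231, 139 and 193 CPM at 72 h (1.57 ± 0.32, adjusted p = 0.00027). The kinase Pmvk was higher at 30, 48 and 72 h (0.79 ± 0.18, 0.83 ± 0.17 and 1.47 ± 0.21), as was Acat2 (0.60 ± 0.20, 1.05 ± 0.19 and 0.91 ± 0.24). Mvk, the first kinase of the branch, was called at 48 h (1.09 ± 0.27, adjusted p = 0.0015) and not at 72 h (0.68 ± 0.30, adjusted p = 0.083). Ggps1 was not called at any of the 4 times.

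Of the squalene-to-cholesterol steps, Nsdhl was higher at 30 h (1.40 ± 0.25, adjusted p = 0.0001) and 72 h (2.26 ± 0.29, adjusted p = 3.3e-08), with 0.60 ± 0.24 at 48 h (adjusted p = 0.058). Sqle followed the same order: 0.77 ± 0.20 at 30 h (adjusted p = 0.011), 0.04 ± 0.20 at 48 h (adjusted p = 0.92) and 0.95 ± 0.24 at 72 h (adjusted p = 0.0021). At 48 h its low libraries, at 72.5, 70.8 and 79.9 CPM, lay among the high ones at 48.7, 92.3 and 85.1 CPM, and at 72 h 45.7 and 57.8 CPM lay below 117, 83.5 and 99.9 CPM. Cyp51 was called at 30 h (0.92 ± 0.26) and 72 h (1.54 ± 0.34) and not at 48 h (0.37 ± 0.28), with 11.3 and 13.6 CPM in low and 46.2, 31.0 and 31.4 CPM in high cultures at 72 h. Dhcr7, the last reductase of cholesterol synthesis, was higher at 30, 48 and 72 h (0.76 ± 0.23, 0.92 ± 0.23 and 1.31 ± 0.27). Lss was higher at 48 h (2.10 ± 0.51) and 72 h (1.66 ± 0.50), at levels of 19.4 CPM or less. Ebp went the other way at 72 h (-0.49 ± 0.17, adjusted p = 0.022), with 191 and 209 CPM in low and 153, 133 and 140 CPM in high cultures; with no filter on low counts that call was lost (adjusted p = 0.072). Hsd17b7 was not called at any of the 4 times.

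**Figure D4:**
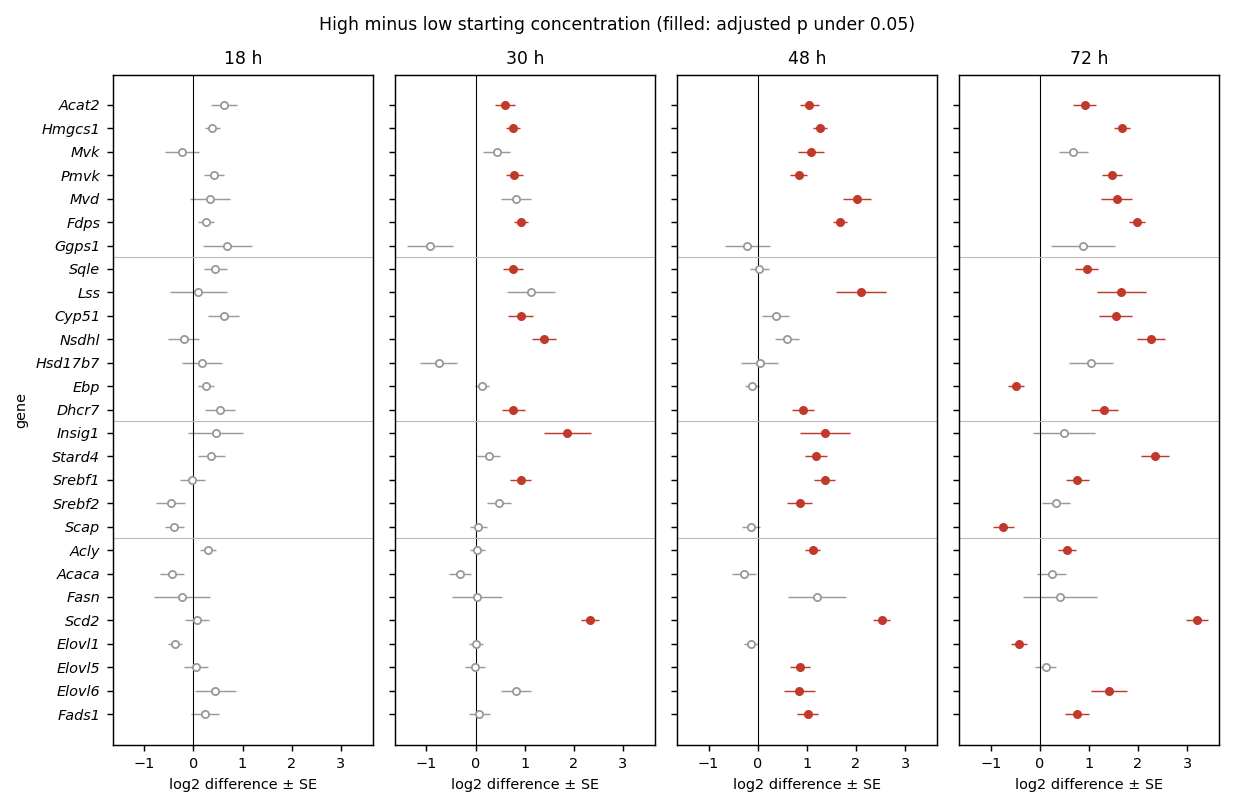
Difference between high and low cultures (log2, horizontal axis) with its SE for 27 genes at 18, 30, 48 and 72 h; Scd1 and Fads2 are left out because a group had 3 counts or fewer, and filled points passed an adjusted p of 0.05. At 18 h no point is filled, and at 72 h Ebp, Scap and Elovl1 are the filled points left of 0.

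Of the 5 regulators, 2 were higher in high cultures at 30 h, 4 at 48 h and 2 at 72 h, with 1 lower at 72 h. Insig1, which retains SCAP and is itself a known SREBP target, was at 3.60, 3.31 and 1.77 CPM in low and 5.76, 9.95 and 14.6 CPM in high cultures at 30 h (1.86 ± 0.48, adjusted p = 0.0085). It was 1.38 ± 0.51 higher at 48 h (adjusted p = 0.038), a call lost with no filter (adjusted p = 0.055) and with the second title number as a term (adjusted p = 0.11). The 72 h difference was 0.49 ± 0.63 (adjusted p = 0.6). Stard4 was called at 48 h (1.19 ± 0.23, adjusted p = 4.9e-05) and 72 h (2.34 ± 0.28, adjusted p = 6.2e-09), when low cultures had 22.5 and 20.6 CPM and high cultures 122, 96.4 and 111 CPM. Srebf1 differed by -0.02 ± 0.25 at 18 h (adjusted p = 0.99), with high libraries at 51.2, 58.2 and 54.0 CPM among the low ones at 53.3, 50.9 and 64.2 CPM. It was higher in high cultures at 30 h (0.92 ± 0.22, adjusted p = 0.0039), 48 h (1.37 ± 0.21, adjusted p = 1.6e-06) and 72 h (0.76 ± 0.24, adjusted p = 0.013). Srebf2 was called only at 48 h of the 4 times (0.85 ± 0.25, adjusted p = 0.0099), where high libraries at 181, 121 and 65.6 CPM overlapped low ones at 76.6, 66.7 and 57.4 CPM, and not with the second title number as a term (adjusted p = 0.066). Scap, the escort, was lower in high cultures at 72 h (-0.74 ± 0.21, adjusted p = 0.0056).

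Scd2 had the largest difference of the fatty acid genes with more than 3 counts in every high and low group. Low cultures were at 31.4, 34.0 and 55.3 CPM at 18 h, 73.9, 67.9 and 71.3 CPM at 30 h, 90.2, 96.1 and 108 CPM at 48 h and 95.1 and 83.2 CPM at 72 h. The difference from the high cultures given above was 0.07 ± 0.24 at 18 h (adjusted p = 0.98), 2.34 ± 0.18 at 30 h (1e-13), 2.52 ± 0.18 at 48 h (6e-16) and 3.19 ± 0.22 at 72 h (2.6e-16). The 18 h ranges overlapped and those of the later times did not, and at 72 h the ratio of means was 9.16. Scd1 had 71 counts in high and 0 in low libraries at 72 h, at least 22.1-fold higher when the low group is set to 3 counts. Fads2 had 38 and 1 counts at 30 h, a ratio of 33.1 (5.60 to 1342). At 48 h Scd1 and Fads2 had 5 and 4 counts in low cultures. Their ratios of mean CPM were then 18.7 and 17.8, with 5.74 for Scd2. At so few counts the ratios of Scd1 and Fads2 are imprecise, and their order relative to Scd2 was not tested.

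Of Acly, Acaca and Fasn, only Acly was called. It was at 132, 99.5 and 100 CPM in low and 240, 226 and 253 CPM in high cultures at 48 h (1.12 ± 0.16, adjusted p = 2.4e-07), and 0.54 ± 0.18 higher at 72 h (adjusted p = 0.023). Acaca was not called at any of the 4 times, with differences of -0.44 ± 0.25, -0.32 ± 0.23, -0.27 ± 0.24 and 0.24 ± 0.30. At 72 h its low libraries had 19.4 and 17.7 CPM and its high libraries 23.5, 18.1 and 24.0 CPM, a range that overlaps. Fasn was not called either, at levels of 8.03 CPM or less. At 48 h its low libraries had 1.56, 1.15 and 2.41 CPM and its high libraries 5.04, 3.65 and 4.10 CPM, ranges that did not overlap (1.21 ± 0.59, adjusted p = 0.13). Of the elongases and desaturases, Elovl6 (1.41 ± 0.37 at 72 h, adjusted p = 0.003) and Fads1 (1.02 ± 0.21 at 48 h, adjusted p = 0.00022) were higher at 48 and 72 h. Elovl5 was called at 48 h alone of the 4 times (0.86 ± 0.20, adjusted p = 0.00097), and Elovl1 was lower at 72 h (-0.43 ± 0.16, adjusted p = 0.046; not called with no filter on low counts).

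Whether the difference changed with time was tested as such. From 18 to 48 h it grew for 9 genes and shrank for 0, where 14.0% of all genes were called. Among them were Scd2 (2.46 ± 0.30, adjusted p = 5.9e-08), Fdps (1.42 ± 0.21, adjusted p = 3.4e-06), Hmgcs1 (0.89 ± 0.21, adjusted p = 0.0019), Srebf1 (1.39 ± 0.33, adjusted p = 0.0021) and Acly (0.82 ± 0.23, adjusted p = 0.011). The others were Srebf2 (1.31 ± 0.39, adjusted p = 0.017), Mvd (1.68 ± 0.50, adjusted p = 0.019), Mvk (1.33 ± 0.43, adjusted p = 0.032) and Scd1, whose 18 h groups had 3 counts or fewer. With the second title number, described below, as a term 5 of the 9 were called (11.0% of all genes): Scd1, Scd2, Fdps, Hmgcs1 and Srebf1. The adjusted p values of the others were then 0.054 for Acly, 0.054 for Srebf2, 0.056 for Mvd and 0.12 for Mvk. From 48 to 72 h the difference became larger for 3 other genes, Nsdhl (1.66 ± 0.38, adjusted p = 0.0019), Stard4 (1.16 ± 0.36, adjusted p = 0.025) and Sqle (0.92 ± 0.31, adjusted p = 0.043). That is 3 of 29, where 12.6% of all genes were called, so the count stands near the background. None of those 3 was called without the low 72 h replicate 1 or with the second title number as a term. A single gene was called without the low 48 h replicate 2, the high 72 h replicate 1 or the low 72 h replicate 2.

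In experiment 2 each title ends in a number, 1 or 2, called the second title number here because it follows the replicate number. No source used here explains it. At 72 h the high libraries all have number 1 and the low ones number 2, so the number and the concentration cannot be told apart within that time. At 18 h all libraries have number 1 and at 30 h all have number 2, so the differences between concentrations at these times are within 1 number, while the step from 18 to 30 h is not. In high cultures the step from 48 to 72 h also goes with a change of number, from 2 to 1. Time and number cannot be told apart in either of these steps of the high cultures, nor from 18 to 30 h in the low cultures. At 48 h the high libraries have number 2, and so has 1 of the 3 low libraries. A fit that kept that low library alone called 12 genes higher in high cultures, where 9.89% of all genes were called, but it assumes that the lone library varies like the other groups. The differences in that fit were 2.64 for Scd2, 1.91 for Fdps, 1.31 for Hmgcs1 and 1.85 for Mvd. With the number as a term 13 genes were called at 30 h (9.18% of all genes), 17 at 48 h (19.8%) and 21 at 72 h (16.6%). At 30 h the term cannot shift the difference, because both groups have the same number. At 72 h it relies on an effect of the number estimated in the groups that hold both numbers and taken to be the same there. The counts at these 2 times therefore do not test the calls against the number. At the mean of 18, 30 and 48 h, without 72 h, 18 genes were higher and 0 lower (15.0% of all genes called).

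CD62L, a lymph node homing receptor, marked the other comparison, which used cultures started at 250000 per ml. In experiment 1 edgeR called 0 of 27 genes at 48 h (6.51% of all genes), as did DESeq2, with 0 at an unadjusted p under 0.05, and edgeR called 2 lower in CD62L positive cells at 72 h (19.5% of all genes). The latter were Acat2, at 92.5, 78.7 and 75.1 CPM in negative and 48.4, 37.1 and 47.2 CPM in positive cells (-0.92 ± 0.20, adjusted p = 0.00083), and Cyp51, at 272, 288 and 239 against 206, 195 and 178 CPM (-0.46 ± 0.14, adjusted p = 0.019). Neither pair of ranges overlapped. The count at 72 h was 4 with total counts as the scale or without the positive replicate 3, and 1 without the negative replicate 1 or 2. The change of the difference from 48 to 72 h was called for 0 genes by edgeR and by DESeq2 (1.89% of all genes by edgeR; 2 genes had an unadjusted p under 0.05), and for 1 without the 72 h positive replicate 3. The CD8 markers were higher with CD62L too, at 11.5 to 24.4 CPM in negative and 24.5 to 36.9 CPM in positive cells at 48 h and 13.1 to 17.1 against 31.8 to 53.6 CPM at 72 h. Their part in the differences was not tested.

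In experiment 2 at 48 h, CD62L positive cells were higher for 4 of 29 genes and lower for none. Of all genes 14.5% were called, so the count stands near the background. Fdps was at 169, 151 and 166 CPM in negative and 279, 289 and 281 CPM in positive cells (0.81 ± 0.14, adjusted p = 3.4e-05), and Mvd at 33.9, 41.7 and 42.9 against 67.3, 70.4 and 94.6 CPM (0.96 ± 0.28, adjusted p = 0.019). Elovl5 (0.60 ± 0.20, adjusted p = 0.037) and Ebp (0.41 ± 0.14, adjusted p = 0.044) were also higher. Those last 2 calls were lost with total counts as the scale and with no filter on low counts, and 1 gene was called without the negative replicate 2 and 2 were called without the negative replicate 1 or any 1 positive library. All positive libraries at 48 h have second number 1, and 2 of the 3 negative ones number 2. The CD8 markers summed to 15.0 to 25.2 CPM in negative and 24.5 to 34.8 CPM in positive cells at 48 h and to 13.1 to 20.3 and 25.3 to 29.4 CPM at 72 h, and their part was not tested.

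At 72 h Elovl5 alone of the 29 genes was called higher in CD62L positive cells (1.53% of all genes), at 103, 86.9 and 113 CPM in negative and 192, 148 and 166 CPM in positive cells (0.74 ± 0.20, adjusted p = 0.033). That call held without the negative replicate 3 and was lost without each of the other 5 libraries. Fdps at 72 h was at 311, 322 and 398 CPM in negative and 379, 315 and 374 CPM in positive cells, ranges that overlap. The change of its difference from 48 to 72 h was -0.76 ± 0.20 (adjusted p = 0.034; 1.30% of all genes were called), a call lost in 7 of the 12 fits that leave out 1 library and with no filter on low counts (adjusted p = 0.12). Acat2 and Cyp51, lower in positive cells in experiment 1, were not called in experiment 2 at either time. The difference between the experiments was not tested.

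**Figure D5:**
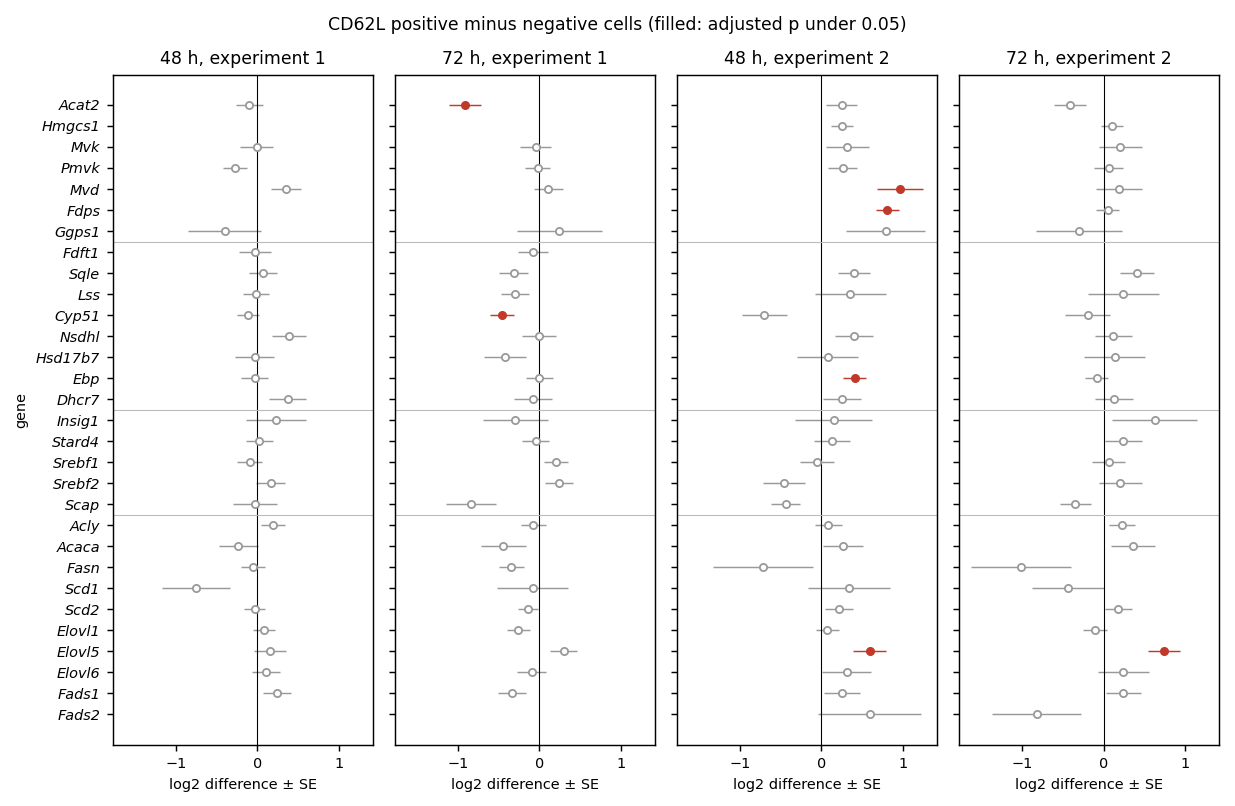
Difference between CD62L positive and negative cells (log2, horizontal axis; points right of 0 are higher in positive cells) with its SE for each tested gene, in 1 panel for each time and experiment; filled points passed an adjusted p of 0.05. Filled are Acat2 and Cyp51 left of 0 at 72 h in experiment 1, and Mvd, Fdps, Ebp and Elovl5 at 48 h and Elovl5 at 72 h right of 0 in experiment 2.

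The sorted cells were also compared between times. From 48 to 72 h, at the mean of both sorts, 15 of 29 genes were higher and 1 lower in experiment 2 (37.8% of all genes called, 19.1% higher). Scd2 rose by 1.07 ± 0.12 (adjusted p = 4.2e-10), from 243 to 308 CPM over the 48 h libraries to 445 to 661 CPM at 72 h, and Elovl5 by 1.06 ± 0.14 (adjusted p = 2.5e-08). Srebf1 (0.92 ± 0.15, adjusted p = 1.4e-06), Fads1 (0.85 ± 0.15, adjusted p = 9.2e-06), Mvk (0.79 ± 0.19, adjusted p = 0.00061) and Fdps (0.71 ± 0.10, adjusted p = 7.6e-08) also rose. So did Hmgcs1 (0.49 ± 0.10, adjusted p = 7.5e-05), from 195 to 245 CPM up to 266 to 322 CPM. In experiment 1, 6 of 27 genes were higher and 6 lower at 72 h (52.5% of all genes called). Elovl5 (1.07 ± 0.13, adjusted p = 6.6e-09), Srebf1 (0.66 ± 0.11, adjusted p = 2.5e-06), Mvk (0.65 ± 0.14, adjusted p = 0.00016) and Srebf2 (0.43 ± 0.12, adjusted p = 0.003) rose. Over the same time Fasn (-0.87 ± 0.11, adjusted p = 1.5e-08), Acat2 (-0.69 ± 0.13, adjusted p = 3e-05), Acaca (-0.60 ± 0.18, adjusted p = 0.0058) and Cyp51 (-0.38 ± 0.10, adjusted p = 0.0013) fell.

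Other genes of sterol and fatty acid metabolism were read from 3 lists. At the mean of the 4 concentration differences 8 of 15 further synthesis and uptake genes were higher in high cultures and 1 lower, against 20.5% of all genes called in either direction. Among those higher was Msmo1, a sterol oxidase (0.82 ± 0.12). Of 8 genes of sterol export, storage and the liver X receptor pathway 3 were higher and 0 lower: Mylip, a ubiquitin ligase (1.27 ± 0.28), the exporter Abcg1 (1.89 ± 0.44) and the receptor Nr1h2 (0.25 ± 0.09). Of 8 fatty acid oxidation genes 0 were higher and 2 lower, Cpt1a, which admits fatty acids to mitochondria (-1.02 ± 0.15), and Acadvl (-0.46 ± 0.10).

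At 18 h against naive cells, where 65.9% of all genes were called, the calls in these lists went in both directions. Of the further synthesis and uptake genes 8 were higher and 5 lower of 15, of the export and storage genes 0 higher and 5 lower of 8, and of the oxidation genes 2 higher and 5 lower of 8. The genes with the smallest adjusted p were Tecr (-1.47 ± 0.14), Acss2 (-3.09 ± 0.32) and Hsd17b12 (1.84 ± 0.20) in the first list and Abcg1 (-4.74 ± 0.44), Mylip (-3.38 ± 0.32) and Npc2 (-2.96 ± 0.36) in the second. In the third, Cpt1a (-1.58 ± 0.26) and Hadhb (-0.79 ± 0.21) were among those lower. For CD62L at 72 h in experiment 1, Npc2 (1.26 ± 0.12), Mylip (1.78 ± 0.29) and Abcg1 (0.87 ± 0.14) were higher in positive cells, 3 of 9 in their list, where 19.5% of all genes were called. Markers of other cells were higher there as well: 7 myeloid markers, all detected, summed to 14.1 to 32.0 CPM in negative and 62.2 to 72.2 CPM in positive cells, beside the CD8 markers given above. The part of those cells in the 3 differences was not tested. Of the further synthesis and uptake genes 2 of 14 were lower, Hacd1 (-1.98 ± 0.54) among them. By edgeR 0 of 9 oxidation genes were called, with 2 at an unadjusted p under 0.05. In experiment 2 edgeR called 0 genes of the 3 lists at 72 h (1.53% of all genes), with 2, 3 and 1 at an unadjusted p under 0.05 in the same order of lists.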

How the data were processed

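RNA of sorted CD4 T cells was turned into 3′ end libraries with poly-T primers that carry molecular identifiers and with linear amplification, per the labels' protocols. Build mm9, HTSeq 0.9.1, STAR 2.5.2b, HISAT 0.1.5, bcl2fastq 2.17.1.14 and FastQC 0.11.7 are named in the submitters' processing notes. No source used here gives the role of each or says whether identifiers were collapsed. The authors deposited raw counts per gene symbol, and no column was left unmapped to a library. Replicate libraries differed by 1.32 to 16.5 times the variance of counting alone, so no library was treated as a duplicate and counting intervals cover counting error only.

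Robust quasi-likelihood models with 1 coefficient per group were fitted to each table in R 4.3.3 and edgeR 4.0.16, after TMM scaling and filterByExpr at a minimum count of 10. Experiment 1 had 8961 genes tested, 12 residual degrees of freedom and a common dispersion of 0.0147. For experiment 2 these were 9239, 25 and 0.0268. A gene was called at a Benjamini-Hochberg adjusted p under 0.05 within each of 24 comparisons. SE is the log2 difference over the square root of F. A group at 0 counts was given a floor of 3 counts over the group. The fit was tested on simulated counts.

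The member genes, the lists and the tests were chosen with earlier results of these data known. Named with library values, or where too low with their range, are Hmgcs1, Idi1, Fdps, Sqle, Cyp51, Insig1, Srebf1, Srebf2, Acly, Acaca, Fasn, Scd1, Scd2 and Fads2. To these come, among called genes of a comparison, the 3 sterol, 2 regulator and 3 fatty acid genes with the smallest adjusted p, and up to 3 genes of each further list; other members are given by calls. Some genes that this rule names are not reported here. Alternatives were DESeq2 1.42.0, its size factors in edgeR, total counts alone, no filter, a fit of the compared groups alone, a replicate block, the second title number as a term, libraries with a shared second number, leaving out 1 library and, chosen after seeing the data, the mean of 18, 30 and 48 h. Same-numbered replicates did not deviate together (mean correlation 0.003 in experiment 1 and 0.002 in experiment 2). Promoters are RefSeq windows of GRCm38.p6, not of mm9, and carry no coordinates of the counts.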

Additional observations from a re-analysis of the deposited data

Results flagged for a closer look

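For 9 genes the difference between high and low cultures of experiment 2 differed between 48 and 18 h by a test of the change itself (edgeR's quasi-likelihood test, log2 change of the difference), 9 of 29 where 14.0% of all genes were called, and 5 with the second title number as a term. The values were 0.89 for Hmgcs1, 1.33 for Mvk, 1.68 for Mvd, 1.42 for Fdps, 1.39 for Srebf1, 1.31 for Srebf2, 0.82 for Acly and 2.46 for Scd2. Scd1 had a fitted value of 5.87, which rests on 3 counts or fewer in each 18 h group and gives no size. For 3 of 29 genes the difference changed from 48 to 72 h, by 0.92 for Sqle, 1.66 for Nsdhl and 1.16 for Stard4. Of all genes 12.6% were called, so that count stands near the background. None of the 3 was called with the second title number as a term. At 72 h the second title number and the concentration cannot be told apart. The difference between CD62L positive and negative cells of experiment 2 changed from 48 to 72 h by -0.76 for Fdps. That call was lost in several fits that leave out a single library and with no filter on low counts.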

How the results depend on the processing

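Of 210 calls of single genes, 203 were kept by DESeq2, 207 with its size factors, 195 with total counts alone, 194 with no filter, 190 with the compared groups alone and 202 with a replicate block. The second title number as a term kept 144 of the 170 calls of experiment 2, and libraries of a shared second number kept 14 of 24 in the 3 comparisons that allow it. Some of the 170 calls come from comparisons within 1 second title number, where the term cannot shift the difference. Others come from comparisons in which the number changes with time or concentration. The 144 kept calls therefore do not all test a call against the number. None of the alternatives, nor any fit without 1 library, reversed a called direction. Total counts alone gave 4 calls for CD62L at 72 h in experiment 1 (2 in the fit reported) and 2 for CD62L at 48 h in experiment 2 (4). No filter gave 2 for the latter, 3 for 72 against 48 h in high cultures (5) and 0 for the change of the CD62L difference in experiment 2 (1). The compared groups alone gave 2, 2 and 0 for these 3, 7 for 48 against 30 h in high cultures (14) and 1 for high against low at 18 h (0). With the second title number as a term, 30 against 18 h in high cultures gave 7 (14), 48 against 30 h in low cultures 1 (2), 72 against 48 h in low cultures 1 (3), and the change of the concentration difference 5 from 18 to 48 h (9) and 0 from 48 to 72 h (3). With libraries of a shared second number, high against low at 48 h gave 12 (19) and CD62L at 72 h in experiment 2 gave 0 (1).

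The replicate block, whose pairing the labels do not describe, moved no count of calls past 1.5 times: it gave 17 for 18 h against naive (18), 20 for high against low at 72 h (21) and 12 for 48 against 30 h in high cultures (14), and 3 against 2 for CD62L at 72 h in experiment 1.

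Leaving out 1 library gave, as lowest and highest counts of calls, 16 and 19 for 18 h against naive, 16 and 18 for 48 h sorted cells against naive, and 1 and 10 for mature against naive, where 1 came without naive replicate 2 and 5 without mature replicate 3. In high cultures the ranges were 7 to 12 from 18 to 30 h, 9 to 12 from 30 to 48 h and 1 to 5 from 48 to 72 h, and in low cultures 3 to 5, 2 to 2 and 1 to 4. High against low gave 0 to 0 at 18 h, 9 to 11 at 30 h, 16 to 19 at 48 h, 12 to 19 at 72 h and 21 to 23 at the mean, and its change 6 to 10 from 18 to 48 h and 0 to 5 from 48 to 72 h, the 5 without the high 48 h replicate 3. CD62L gave 0 to 0 at 48 h and 1 to 4 at 72 h in experiment 1 with 0 to 1 for the change, and 1 to 3, 0 to 1 and 0 to 1 in experiment 2. The step from 48 to 72 h in sorted cells gave 10 to 14 in experiment 1 and 13 to 16 in experiment 2. Without 1 low library at 72 h, the other was taken to vary like the other groups. Few counts limit the precision for Fasn, Lss, Insig1, Idi1, Scd1 and Fads2 in experiment 2, and depth limits it for every gene in naive replicate 1 of experiment 1, which has 58750 counts. Few counts in the naive group of experiment 1 limit it for Acat2, Sqle, Cyp51 and Lss as well. The cause of these shifts was not tested.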
